A study of Mus musculus with 4 samples.

Results

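The amino acid transporters are membrane proteins that carry amino acids across the plasma membrane or the lysosomal membrane. They were taken here as the genes of 7 solute carrier families, Slc1, Slc3, Slc6, Slc7, Slc36, Slc38 and Slc43, by the pattern of their symbols. Of 32812 genes with a symbol, 64 were members, and 22 of these passed a filter on low counts and were tested among 7836 genes. The symbol pattern also took in Slc7a6os, a gene beside Slc7a6 that encodes no transporter, and Slc43a3, which carries nucleobases. Messenger RNA was sequenced from a line of C57BL/6 female germline stem cells, kept for more than 20 passages, with 2 untreated control libraries and 2 libraries of cells given spermidine for 4 h. Spermidine is a natural polyamine, its dose is not stated in the labels, and the comparison asks which transcripts differ after it. The labels name no separate cultures or batches. The spread that p-values are set against is therefore that of these libraries alone and may be technical.

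Cells take up essential amino acids mainly through exchangers. Slc7a5 (LAT1) and Slc7a8 (LAT2) trade large neutral amino acids such as leucine for intracellular glutamine, and each reaches the surface only when joined to the heavy chain Slc3a2 (CD98). Sodium-coupled carriers of the Slc1 and Slc38 families load the cell with the glutamine, alanine and serine that are traded out, and the Slc6 family holds carriers for glycine, proline, taurine and the transmitter GABA. Leucine inside the cell activates the growth kinase mTORC1 at the lysosome, where Slc38a9 reports arginine, and low amino acid supply induces several of these genes through the transcription factor ATF4.

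Library totals were 7206176 and 7128901 counts for control replicates 1 and 2, against 787600 and 1718944 after spermidine. A ribosomal row, AY036118, took 1.64% to 1.68% of control counts and 29.6% to 30.7% of spermidine counts. Olfactory and vomeronasal receptor genes, which these cells should lack, gave 0.0637 and 0.154 counts per kb in the controls. In spermidine replicates 1 and 2 they gave 3.18 and 0.175 counts per kb. Of the germ cell genes that define the labelled cell type, Ddx4 had 1 count and Dazl had 3 counts over all 4 libraries. These defining genes were thus near 0, each measured on under 500 bases free of other transcripts, and Kit had 0 to 13 counts. The 3 tested germ cell genes differed in direction. Ifitm3 (49 and 132 against 72 and 146 counts) and Dppa3 (2 and 3 against 9 and 263) were called higher, and Tex19.1 (1955 and 1770 against 36 and 25) lower. Granulosa and theca markers summed to 134 to 162 CPM (counts scaled to a library of fixed size) in the controls and 2257 to 6791 in spermidine. Megakaryocyte and platelet markers summed to 1528 to 1982 and 143 to 272 CPM. In such bulk samples, fewer cells of a type and less RNA per cell cannot be told apart.

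The promoters below belong to the gene called lower by the largest fold, Slc7a8, and the gene called higher by the largest fitted fold, Slc38a5. They are RefSeq sequences of GRCm38.p6, each with 250 bases before the gene start in lower case and 50 bases from the start on in capitals. The Slc7a8 window lies at chr14:54781837-54782136 on the minus strand and the Slc38a5 window at chrX:8271131-8271430 on the plus strand.
Slc7a8: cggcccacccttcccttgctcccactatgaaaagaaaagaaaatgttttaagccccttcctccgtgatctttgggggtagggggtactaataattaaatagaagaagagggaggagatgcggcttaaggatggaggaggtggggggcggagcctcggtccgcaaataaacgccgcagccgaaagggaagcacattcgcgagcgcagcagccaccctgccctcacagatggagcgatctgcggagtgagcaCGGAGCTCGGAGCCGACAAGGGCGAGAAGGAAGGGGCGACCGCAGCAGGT
Slc38a5: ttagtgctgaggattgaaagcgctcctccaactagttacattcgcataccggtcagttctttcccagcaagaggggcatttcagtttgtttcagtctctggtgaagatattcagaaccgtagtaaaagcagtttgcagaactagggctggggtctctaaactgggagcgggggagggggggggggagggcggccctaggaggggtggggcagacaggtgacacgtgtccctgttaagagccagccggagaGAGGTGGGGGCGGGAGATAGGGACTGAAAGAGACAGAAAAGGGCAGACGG
Slc7a8 had 20 CpG dinucleotides in its window and Slc38a5 had 10, against a median of 7 over 32851 promoters. Promoters were searched on both strands for TGATGNAA, a form of the element that ATF4 binds, and for TGACGTCA, the cAMP response element. The first was in 3.97% of all 32851 promoters and the second in 1.79%. Of the 46 members with a promoter in the table, Slc1a4, Slc6a21, Slc7a7 and Slc7a11 held the first, and Slc38a6 held the second. No promoter of a called member that the table holds had either motif, which says only that these letters are absent from those windows. The called members Slc7a5 and Slc7a13 have no promoter there, so they were not searched. The matches in Slc7a11, the cystine carrier, and Slc1a4, a carrier of neutral amino acids, are shown with TGATGNAA or its reverse complement in capitals. Both genes are known targets of ATF4, and they were picked for display after their values were seen.
Slc7a11: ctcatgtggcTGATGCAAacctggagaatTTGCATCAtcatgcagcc
Slc1a4: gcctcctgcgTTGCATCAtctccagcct
These windows lie at chr3:50443643-50443689 and chr11:20332700-20332727, both on the minus strand. Slc7a11 held 2 matches in opposite orientation, the nearer one starting 47 bases before a transcript start at 50443613. Another Slc7a11 transcript starts at 50499087, far from this window. The match in Slc1a4 began 4 bases before its start.

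Slc7a5 and Slc7a8, both exchangers of large neutral amino acids, were the only members called lower, and 8 members with almost no control counts were called higher. Among the 22 tested members, 8 were called higher (36.4%) and 2 lower (9.09%) by edgeR's quasi-likelihood test, with the threshold at 0.05 after Benjamini-Hochberg adjustment. Over the whole table, 24.8% of tested genes were called higher and 3.99% lower, and 28.8% in either direction. The median log2 fold change was -0.21 over the 22 members and 0.23 over all tested genes, and 0.37 over all genes with upper-quartile factors. Both spermidine libraries lay above both controls for 9 members and below for 7, against 36.6% and 29.6% of all tested genes. With so few members, these shares are a description of the list and show nothing particular to it. Without control replicate 1, edgeR called 0 members higher and 0 lower, where 8 and 1 had an unadjusted p under 0.05 and 0 of all genes were called. Without control replicate 2 it called 5 members higher and 0 lower, against 18.4% and 0.868% of tested genes. Without spermidine replicate 1 it called 1 and 0, against 5.77% and 0.408%, and without spermidine replicate 2 it called 9 and 2, against 32.1% and 15.4%.

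**Figure D1:**
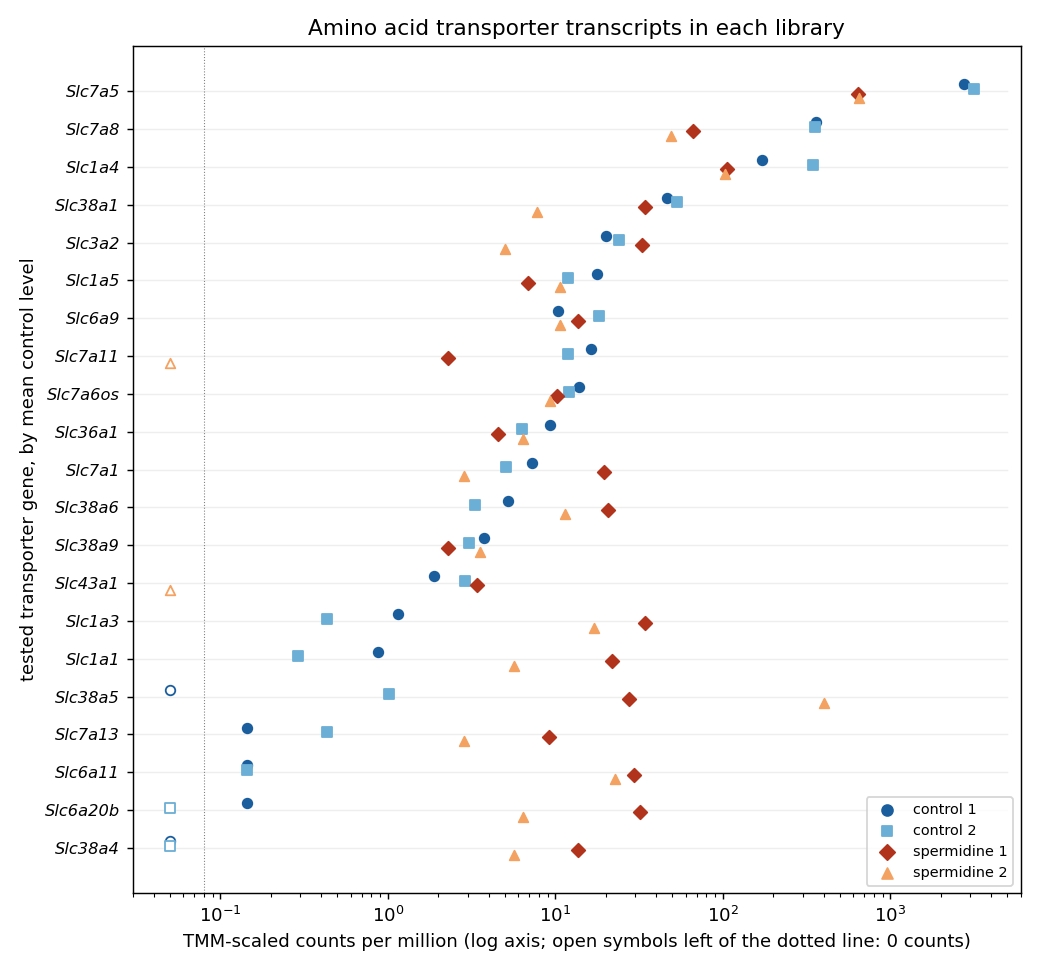
TMM-scaled CPM in each of the 4 libraries for 21 of the 22 tested transporter genes, ordered by mean control level, on a log axis with open symbols for 0 counts. Slc7a5 lies highest in every library, and the 7 genes at the bottom had at most 8 counts in any control.

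The low-count filter asked for about equal CPM in each library and so for unequal counts. A gene had to reach the level in any 2 libraries, which took 17 counts in a control but 2 or 4 counts in spermidine replicates 1 and 2, and 15 counts in all. All 8 members called higher passed only through the spermidine libraries. Of the 2272 genes of the whole table that passed in that way, 77.6% were called higher and 0 lower, so the route itself favours such calls and their number is no support for a rise. The 12 members that passed in both groups held both calls that were lower and 0 higher. Of the 4224 genes that did so, 4.24% were called higher and 6.75% lower.

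Among the heteromeric exchangers, Slc7a5 (chromosome 8, 121881146 to 121907686, minus strand, GRCm38) had 19169 and 21761 control counts against 562 and 912 after spermidine. Scaled to TMM CPM, these were 2778 and 3149 against 643 and 649. The groups were far apart and the libraries within each group lay close together. The log2 fold change was -2.20 ± 0.57 (SE), with an edgeR adjusted p of 0.0196. By level per length, where only members with 1 row and no shared bases can be set side by side, Slc7a5 stood first of 13 such members in both controls and in spermidine replicate 1. It had 791 and 896 CPM per kb in the controls and 183 and 185 in spermidine, where Slc38a5 had 14.7 and 214 and so stood above it in spermidine replicate 2. Slc1a4 followed in the controls with 43.7 and 88.2 CPM per kb. The sign of Slc7a5 was negative in all 17 alternatives, with values from -2.68 to -1.49, and 10 of them kept the call. The call was lost without control replicate 1 (edgeR adjusted p = 0.224), without control replicate 2 (0.286) and without spermidine replicate 1 (0.0585). It was also lost at equal depth without AY036118 (edgeR adjusted p = 0.0517), with 1 CPM asked of all libraries (0.0724), with no filter (0.282) and with a replicate block (0.0922).

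Slc7a8 (chromosome 14, 54722215 to 54781886, minus strand) had 2502 and 2459 control counts against 58 and 69. Its CPM values were 363 and 356 in the controls and 66.3 and 49.1 in spermidine, with no overlap between the groups. Its log2 fold change was -2.65 ± 0.54 (SE), with an edgeR adjusted p of 0.00779. Nearly all counts fell on the RefSeq row of the full-length transcript, with 2496, 2458, 58 and 69. The alternatives gave log2 fold changes from -3.15 to -1.92, all negative, and 12 of 16 kept the call. Slc7a8 was not called without control replicate 1 (edgeR adjusted p = 0.103), without control replicate 2 (0.0776), without spermidine replicate 1 (0.0502) or with no filter (0.263). Its neighbour Slc7a7, an exchanger of cationic for neutral amino acids, lies 305 kb away on chromosome 14 and had 2 and 11 control counts against 3 and 0, too few for a test. The ratio of Slc7a5 to Slc7a8 counts was 7.66 and 8.85 in the controls and 9.69 and 13.2 in spermidine. That ratio does not depend on scaling, and it was higher in both spermidine libraries than in both controls. In spermidine it rests on only 58 and 69 Slc7a8 counts, and the difference was not tested. Some markers of blood cells were lower too, while others were higher or not called. Of 4 tested megakaryocyte and platelet markers, Itga2b (5738 and 4658 against 136 and 131 counts) and Plek (7913 and 5844 against 82 and 58) fell. The other two were not called, with log2 fold changes of 2.24 for Pf4 and 0.05 for Ppbp. Mast cell and basophil markers summed to 351 and 232 CPM in the controls and 61.7 and 22.1 in spermidine. Of 3 tested, Cpa3 and Gata2 were called lower and Cma1 was not called (log2 fold change 0.49). Among 4 tested erythroid markers, Hba-a1 (20 and 28 against 63 and 554 counts) and Hbb-bs (68 and 29 against 85 and 491) were called higher. Tfrc was called lower and Klf1 was not called. The part of these markers in the fall of Slc7a5 and Slc7a8 was not tested.

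Slc3a2, the heavy chain that Slc7a5 and Slc7a8 both need, was not called. It had 138 and 166 control counts against 29 and 7, or 20.0 and 24.0 CPM against 33.2 and 4.98. The spermidine libraries lay on either side of the controls. Its log2 fold change was -0.34 ± 0.88 (SE; edgeR adjusted p = 0.803). The sign of Slc3a2 turned without spermidine replicate 2, to 0.66, and without spermidine replicate 1 it was -2.14. Slc3a2 has 4 transcript rows that share bases, and reads on shared bases appear to be left out of the counts, so its level cannot be set against that of Slc7a5. Slc3a1, the heavy chain of the kidney and intestine exchangers, had 1 and 0 control counts against 13 and 1.

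Slc7a11, which brings in cystine in exchange for glutamate and so feeds glutathione synthesis, had 113 and 82 control counts against 2 and 0. The CPM values were 16.4 and 11.9 in the controls and 2.29 and 0 in spermidine. The groups did not overlap, and the pooled ratio of spermidine to control was 0.0621 (95% counting interval 0.00747 to 0.228). It was not called by edgeR (adjusted p = 0.0645) and was called by limma-voom (adjusted p = 0.035). A list of genes of glutathione and the oxidative stress response also holds Nfe2l2, Keap1, Hmox1 and Nqo1. Of its 11 tested genes, 3 fell and 1 rose, where 3.99% of all tested genes were called lower and 24.8% higher. The list median log2 fold change was -1.64 against 0.23 for all tested genes. Genes that passed the filter only through spermidine, with a median of 5.11, lift that 0.23. The median was -0.49 over genes that passed in both groups and -0.88 over those that passed through controls only. Srxn1, which repairs oxidised peroxiredoxins, fell from 2916 and 2596 to 48 and 67 counts, and Gsr, glutathione reductase, from 2668 and 1905 to 46 and 152. The glutamate-cysteine ligase subunit Gclm fell from 3276 and 2483 to 112 and 195 counts. The catalytic subunit gene Gclc had 1 and 3 control counts against 8 and 6 and was called higher, passing the filter only through spermidine. Lower calls on this list numbered 0 without control replicate 1 or spermidine replicate 1, and 1 without control replicate 2 or with a replicate block.

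Slc7a1, the main carrier of arginine and lysine, had 50 and 35 control counts against 17 and 4. The spermidine libraries lay on both sides of the controls in CPM, 19.4 and 2.85 against 7.25 and 5.06, with no call (log2 fold change 0.68 ± 0.98 SE, edgeR adjusted p = 0.641). Without spermidine replicate 1 the value was -1.11. The other cationic carriers Slc7a2, Slc7a3, Slc7a4 and Slc7a14 together had 0 control counts. Slc7a3 had only 3 bases of its own and Slc7a14 had 266, so these data hardly measure them. Slc7a13, an exchanger of aspartate and glutamate known from kidney, had 1 and 3 control counts against 8 and 4 and was called higher (log2 fold change 4.09 ± 1.04 SE, edgeR adjusted p = 0.0133). In spermidine replicate 1, Slc7a13 gave 3.75 counts per kb against 3.18 on receptor genes. DESeq2 did not call Slc7a13 (adjusted p = 0.0856), and it was not called without control replicate 1 (edgeR adjusted p = 0.156) or spermidine replicate 1 (0.106). With the receptor background subtracted it was too low to be tested.

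**Figure D2:**
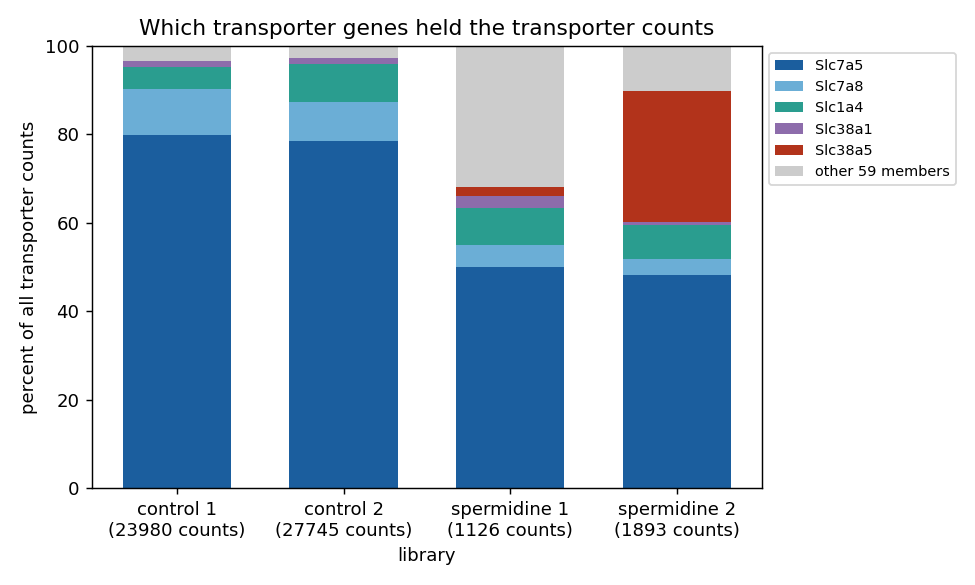
Share of all transporter counts held by each of 5 genes and by the other 59 members, in percent, for each library, with the number of transporter counts under it. Slc7a5 held 79.9% and 78.4% in the controls and 49.9% and 48.2% in spermidine, and Slc38a5 held 29.7% in spermidine replicate 2.

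The make-up of the transporter counts does not depend on how libraries are scaled. All members together made up 0.333% and 0.389% of the control libraries but 0.143% and 0.110% of the spermidine ones, totals that include AY036118. Within them, Slc7a5 held 79.9% (exact Clopper-Pearson 95% interval 79.4 to 80.4) and 78.4% (77.9 to 78.9) in the controls. It held 49.9% (46.9 to 52.9) and 48.2% (45.9 to 50.5) in spermidine. The intervals cover counting error only, and those of the groups do not overlap. Slc7a8 held 10.4% and 8.86% in the controls and 5.15% and 3.65% in spermidine. A share also falls where other members rise, and Slc38a5 held 2.13% and 29.7% in spermidine replicates 1 and 2. The 42 untested members held 0.238% and 0.231% in the controls, 9.68% in spermidine replicate 1 and 0.898% in spermidine replicate 2. Counts appeared on 29 and 32 members in the controls and on 46 and 27 members in spermidine replicates 1 and 2, although spermidine replicate 1 was the shallowest library.

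Of the sodium-coupled carriers of neutral amino acids, Slc1a4 (ASCT1) had 1183 and 2393 control counts against 93 and 146. In CPM the controls were unequal, 171 and 346, and both spermidine libraries were lower, at 106 and 104. The log2 fold change of -1.30 ± 0.56 (SE) was not called (edgeR adjusted p = 0.121). Slc1a5 (ASCT2), the main glutamine carrier of dividing cells, had 122 and 82 counts against 6 and 15, with CPM of 17.7 and 11.9 against 6.86 and 10.7 and no call (edgeR adjusted p = 0.56). Slc1a5 was counted on 263 bases of its own, so its level cannot be set against that of Slc1a4. Slc38a1 (SNAT1), a glutamine and alanine carrier, had 319 and 368 counts against 30 and 11. Its log2 fold change was -1.34 ± 0.77 (SE), without a call (edgeR adjusted p = 0.226). Without spermidine replicate 1 the log2 fold change of Slc38a1 was -2.66, and without spermidine replicate 2 it was -0.47. Slc38a2 (SNAT2), which amino acid shortage induces, had only 116 bases of its own and 15 and 10 counts against 1 and 0.

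Slc38a5 (SNAT5), which moves glutamine, asparagine, histidine and glycine in either direction, had 0 and 7 control counts against 24 and 562. On the CPM scale this was 0 and 1.01 against 27.4 and 400.0. Every spermidine value was above every control value, but the spermidine libraries differed from each other by 14.6-fold. The pooled ratio was 507 (95% counting interval 245 to 1267), with an edgeR adjusted p of 0.00611. The call was lost without control replicate 1 (edgeR adjusted p = 0.075) and without spermidine replicate 1 (0.0585). Its fitted log2 fold change ranged from 5.76 without spermidine replicate 2 to 12.37 without control replicate 2. Slc38a5 was the only one of the 8 higher members with more CPM in spermidine replicate 2 than in replicate 1. The summed CPM of oocyte markers was 1.45 and 2.60 in the controls but 158 and 2197 after spermidine, 13.9-fold apart between the spermidine libraries. The egg coat gene Zp3 had 30 and 751 counts and the oocyte lattice gene Padi6 had 36 and 1570, while Zp1, also of the egg coat, had 50 and 339. Granulosa genes differed between the spermidine libraries as well, by unequal amounts. Inha had 104 and 1190 CPM, Inhbb 154 and 3914, Foxl2 145 and 895, and Wt1 58.3 and 235. Star went the other way with 1489 and 315 CPM. The summed CPM of spermidine replicate 2 over replicate 1 was 3.01 for granulosa and theca markers, 3.36 for stroma and 3.94 for erythroid markers. It was 0.526 for megakaryocyte and platelet, 0.357 for mast cell and basophil and 0.293 for macrophage markers. Of the 10 oocyte markers, 4 were at 0 in spermidine replicate 2. These 4 were Zp2, Nobox and Nlrp5, each with under 500 bases of their own, and Figla. The part of these cell types in the value of Slc38a5 was not tested.

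Slc38a4 (SNAT4), an imprinted gene of placenta and liver, had 0 counts in both controls and 12 and 8 in spermidine. Slc38a4 took 4 and 8 of these on its longest row, 12 in all and so under the 15 that the filter asked. In spermidine replicate 1 it took the other 5 and 3 on rows with 133 and 24 own bases, which had 0 counts in spermidine replicate 2. It was at least 40.4-fold higher, taking 3 counts over the controls as the floor (edgeR adjusted p = 0.008), and lost the call without control replicate 1 (0.075) or spermidine replicate 1 (0.0876). Slc38a1, Slc38a2 and Slc38a4 lie side by side on chromosome 15, with 44.5 kb between the first pair and 295 kb between the next. The values of these neighbours went different ways: Slc38a1 was lower in both spermidine libraries without a call, and Slc38a4 was called higher.

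The glutamate carriers Slc1a1 and Slc1a3 were called higher from very few control counts. Slc1a3, the glutamate and aspartate carrier of glia (GLAST), had 8 and 3 control counts against 30 and 24, and its log2 fold change was 4.91 ± 0.97 (SE; edgeR adjusted p = 0.00755). Slc1a1, a glutamate carrier that also takes up cysteine, had 6 and 2 against 19 and 8, with 4.37 ± 1.11 on the log2 scale (edgeR adjusted p = 0.0156). Neither was called without control replicate 1 (0.0844 and 0.112), control replicate 2 (0.0748 and 0.124) or spermidine replicate 1 (0.0635 and 0.0858, all edgeR adjusted p). Slc1a2, the main glutamate carrier of astrocytes, had 0 control counts against 13 and 1 and was not tested. Slc1a7 had 0 and 1 against 13 and 0, and Slc1a6 had 0 counts in every library.

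Members of the Slc6 family called higher had 5 or fewer counts over both controls. Slc6a11 (GAT3), a GABA carrier, had 1 and 1 control counts against 26 and 32. The ratio of pooled CPM was 176 (46.5 to 1485 by counting error; edgeR adjusted p = 0.00378). It was the most even of the 8 higher members between the spermidine libraries, 29.7 and 22.8 CPM, and the only one of the 8 still called without spermidine replicate 1 (edgeR adjusted p = 0.0314). Without control replicate 1 its adjusted p was 0.075. Slc6a20b, of the proline carrier group, had 1 and 0 control counts against 28 and 9 (edgeR adjusted p = 0.00796), a pooled ratio of 224 (37.8 to 9092). Its call was lost without control replicate 1 (edgeR adjusted p = 0.075) or spermidine replicate 1 (0.0545). Its close copy Slc6a20a lies 4.34 kb away on chromosome 9 and had 0 control counts against 2 and 10. Reads that both copies match may have been split or dropped, so their values are uncertain.

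Slc6a9 (GLYT1), the glycine carrier, was the tested Slc6 member with the most control counts, 72 and 126, against 12 and 15 in spermidine. Its CPM values overlapped between groups, 10.4 and 18.2 against 13.7 and 10.7, and the log2 fold change was -0.26 ± 0.80 (SE; edgeR adjusted p = 0.838). Its sign turned without control replicate 2, to 0.21, and without spermidine replicate 2, to 0.011. The taurine carrier Slc6a6 and the creatine carrier Slc6a8 had 10 and 15 bases of their own, so these data hardly measure them. The monoamine carriers Slc6a2, Slc6a3 and Slc6a4, for noradrenaline, dopamine and serotonin, had 0 control counts.

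**Figure D3:**
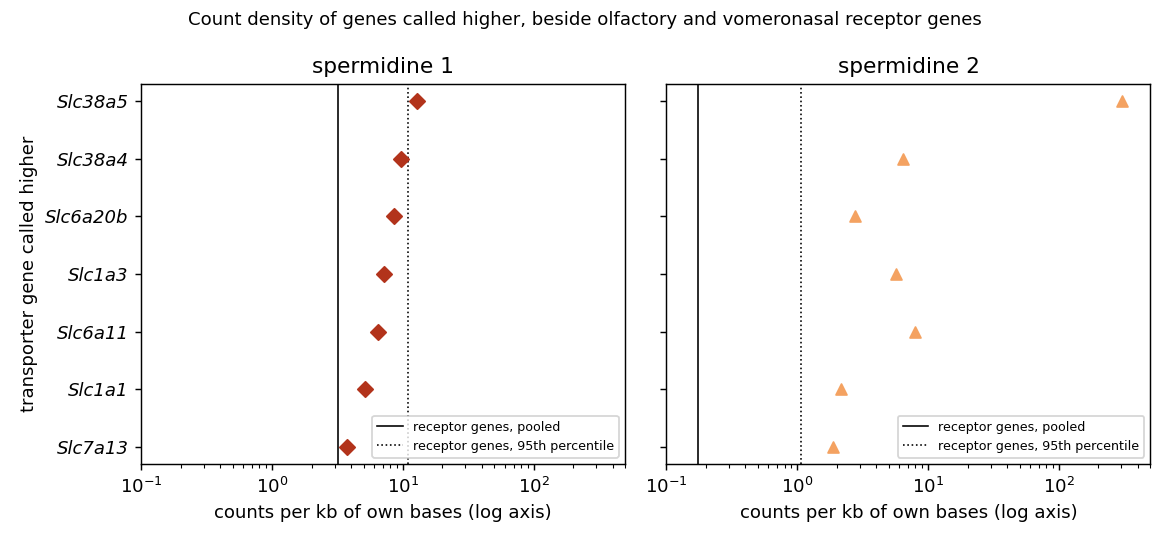
Counts per kb of own bases in spermidine replicates 1 and 2 for 7 of the 8 transporter genes called higher, on a log axis, with lines for the pooled value and the 95th percentile of olfactory and vomeronasal receptor genes. In spermidine replicate 1, 6 of the 7 lie under the 95th percentile of 11 counts per kb, and in spermidine replicate 2 all 7 lie over 1.06. The filter asked at least 4 counts of each in spermidine replicate 2, which largely sets the latter outcome in advance.

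Count densities set these low members beside the receptor genes. In spermidine replicate 1 the 7 plotted members gave 3.75 to 12.8 counts per kb, where receptor genes gave 3.18 pooled and 11 at the 95th percentile, over 1280 receptor genes with at least 500 bases of their own. Only Slc38a5 exceeded that percentile there. In spermidine replicate 2 the 7 gave 1.87 to 301 counts per kb, and each exceeded the 95th percentile of 1.06. The filter had already asked at least 4 counts of each of them there, so that outcome was largely set in advance. Slc7a13, the lowest at 1.87, had just these 4 counts. By comparison, Slc7a5 gave 160 and 260 counts per kb and Slc7a8 53.7 and 63.8. With the receptor background subtracted from every library, 7 of 20 tested members were called higher and 2 lower, against 17.9% and 3.38% of tested genes. The part of this background in each single call was not tested beyond that subtraction. At equal depth without AY036118, 3 of 8 tested members were called higher and 1 lower, against 18.6% and 1.85%.

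No tested transporter of the lysosome was called. Slc38a9, the lysosomal arginine carrier that signals to mTORC1, had 26 and 21 control counts against 2 and 5 and overlapping CPM values (log2 fold change -0.16 ± 0.86 SE). Slc36a1, a proton-coupled carrier of small amino acids, had 64 and 44 against 4 and 9 (-0.47 ± 0.87). Neither was called by edgeR, with adjusted p of 0.913 and 0.723, and their standard errors are wider than the differences. Slc38a6 had 36 and 23 control counts against 18 and 16, with both spermidine CPM values above both controls, and was not called (1.84 ± 0.83, edgeR adjusted p = 0.135). Without spermidine replicate 2, Slc38a6 was called (2.31, edgeR adjusted p = 0.0266). The lysosomal glutamine carrier Slc38a7 had 9 and 11 counts against 0 and 1. Slc43a1 (LAT3), a uniporter of large neutral amino acids, had 13 and 20 against 3 and 0 (-0.82 ± 1.38, edgeR adjusted p = 0.691), and Slc43a2 (LAT4) had 9 and 12 against 0 and 2. Slc7a6os, the match that is no transporter, had 96 and 83 against 9 and 13 (-0.42 ± 0.80, edgeR adjusted p = 0.729).

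Of the 42 untested members, 14 had no count in any library and 4 of these, Slc6a4, Slc6a18, Slc6a21 and Slc7a10, had no base of their own. A group of 11 members had counts in spermidine replicate 1 alone, 1 to 7 each, among them the glycine carrier Slc6a5 with 7 and the cationic carrier Slc7a2 with 5. Another 6 had 13 to 25 counts over the controls and 1 to 3 over the spermidine libraries: Slc7a6, Slc7a7, Slc38a2, Slc38a7, Slc38a10 and Slc43a2. A difference in these 6 was not detectable at this depth. The remaining 11 had from 1 to 15 counts in all. Across the list, 22 of 64 members had under 300 bases of their own, so 0 counts does not show that a gene is silent.

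**Figure D4:**
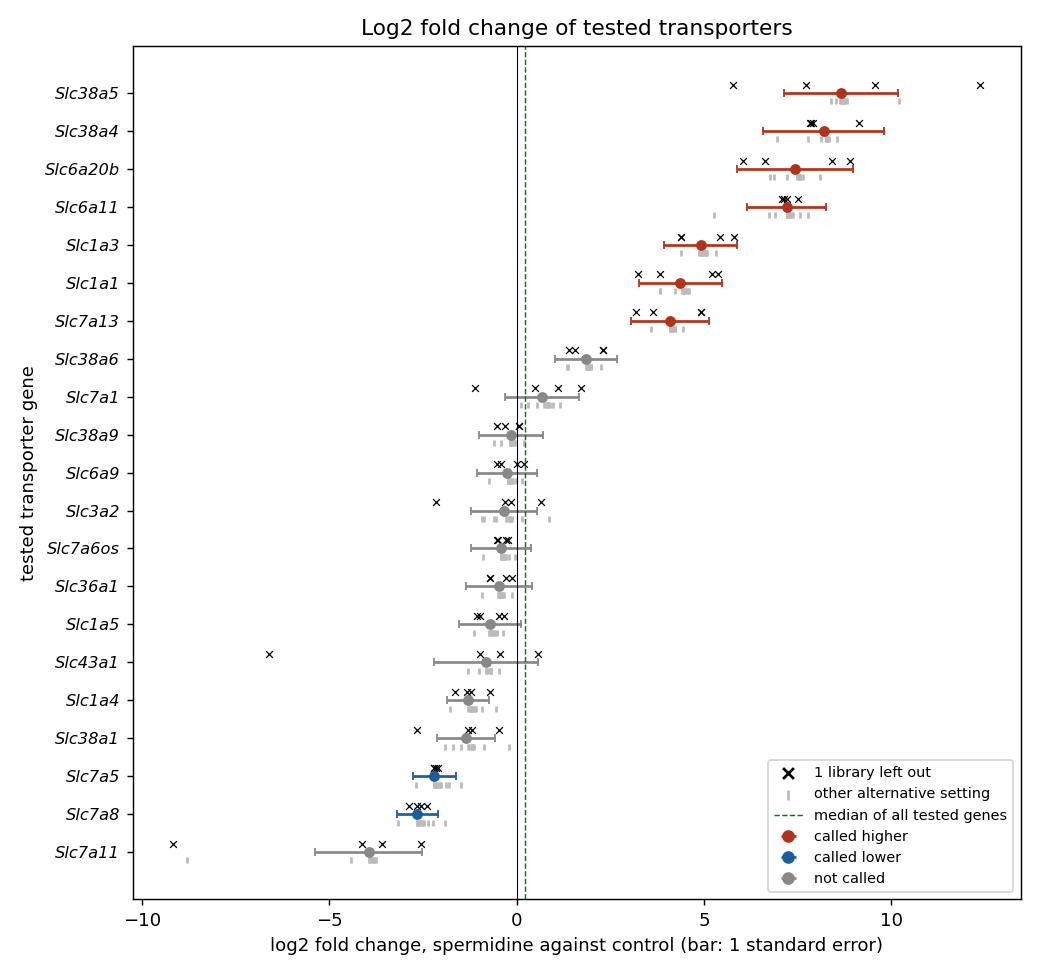
Log2 fold change of spermidine against control for 21 of the 22 tested transporter genes, with bars of 1 standard error, crosses for fits without 1 library and ticks for other settings. The 7 plotted genes called higher lie between 4.09 and 8.66, and Slc7a5 and Slc7a8 lie at -2.20 and -2.65.

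Genes that respond to or sense amino acids were measured from lists chosen by role. Of 18 tested genes of the amino acid response, Phgdh, the first enzyme of serine synthesis, fell from 10035 and 7807 to 166 and 440 counts, and the glycyl-tRNA synthetase gene Gars from 11324 and 12269 to 352 and 626. None rose (0 by edgeR, DESeq2 and limma-voom, and 0 with an unadjusted p under 0.05 in edgeR). The median log2 fold change was -0.64, against -0.49 over all genes that passed the filter in both groups. It was -0.88 over all genes that passed through controls only. Of the 1943 higher calls in the whole table, 1763 were on genes that passed only through spermidine. Of the 18 list genes, 0 passed in that way, so the absence of rises says little. With a replicate block, without either control or without spermidine replicate 1, 0 of these genes were called lower. Without control replicate 2, and also without spermidine replicate 2, 1 gene of the list was called higher. Atf4 itself had 23 and 24 counts against 5 and 3 (log2 fold change 0.07 ± 0.91 SE). Of 24 tested genes of amino acid sensing by mTORC1, 0 were called by edgeR, DESeq2 or limma-voom, 2 were lower at an unadjusted p under 0.05 in edgeR, and the median was -0.34. Without spermidine replicate 2, 4 of the 24 were called lower.

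Other carriers were counted beside the members. Of 9 tested amino acid carriers outside the 7 families, Slc17a7, which loads glutamate into synaptic vesicles, was called higher with 14 and 3 control counts against 20 and 18 (log2 fold change 3.77 ± 0.99 SE, edgeR adjusted p = 0.02). Both tested genes of polyamine transport, of 16 listed, passed the filter only through spermidine, a route by which 77.6% of genes were called higher. Both were called higher, against 24.8% of all tested genes. Of these calls 0 were left without control replicate 1 or without spermidine replicate 1, and 1 with a replicate block, library totals or limma-voom. Slc22a3, an organic cation carrier that takes up polyamines, had 0 control counts against 15 and 9. Gpc1, a proteoglycan tied to polyamine uptake, had 3 and 16 against 35 and 10. With the receptor background subtracted, only 1 gene of polyamine transport could be tested, and it was called higher. The legacy edgeR test called 1 of them, and with no filter 0 were called. Of 4 tested glucose carriers of the Slc2a family, Slc2a10 and Slc2a13 were called higher from 1 to 3 counts in each control. The other tested ones were lower without an edgeR call. These were Slc2a1 (68 and 145 against 4 and 4 counts, log2 fold change -2.11) and Slc2a3 (115 and 90 against 0 and 5, -2.77). Among monocarboxylate carriers, Slc16a1, the lactate and pyruvate carrier MCT1, fell from 5543 and 6530 to 190 and 345 counts. Of 4 tested zinc transporters, Slc39a6 fell from 18472 and 21469 to 454 and 421 counts. Without control replicate 1, none of the calls in these lists of other carriers was kept. Those of Slc17a7 and Slc16a1 were also lost without control replicate 2 or spermidine replicate 1, and that of Slc39a6 without control replicate 2. Each gene of these lists that was called higher passed the filter only through the spermidine libraries, as the 8 members did.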

How the data were processed

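Per the labels' protocols, mRNA was isolated from DNase-treated total RNA for paired-end Illumina sequencing, and a pair of library kits is named. HISAT2, DESeq2 and the build mm9 are named in the submitters' processing notes without role or version, and neither the counting program nor its use of strand is stated in the labels. The deposited values are whole-number counts per RefSeq transcript row, not normalised, per the file headers. Of 106519 rows, 86040 (80.8%) matched a symbol in RefSeq's GRCm38.p6 gene table, and 88.5% of these lay inside the GRCm38 span of their gene, so positions are given as GRCm38. Rows were summed per gene. The 49975 rows whose bases all lie in other rows too took up to 0.0014% of a library, so reads on shared bases appear to be left out.

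The low-count filter was filterByExpr on the groups (minimum count 10, minimum total 15), the scaling was TMM, and genes were tested two-sided with edgeR 4.0.16 (glmQLFit, glmQLFTest) in R 4.3.3, with Benjamini-Hochberg adjustment over 7836 genes and 2 residual degrees of freedom. Alternatives used DESeq2 1.42.0, limma 3.58.1 (voom), other scalings, filters, features and depths, a replicate block and each library left out. A fit without a library keeps the genes tested with all 4 and takes the spread of the lone library from the other group. Receptor background subtraction and the legacy edgeR test were added after the data were seen. The floor, 3 counts, equals 0.416 and 0.421 CPM for the controls but 3.81 and 1.75 for spermidine. Floors and intervals cover counting error only. Replicates differed beyond sampling noise (chi-square over degrees of freedom 51.0 and 40.6). The procedure was tested on simulated data.

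The members and gene lists were chosen with earlier results of these data known. Tested members are named with their values, as are at most 3 called genes in each direction of a related list, except a few items that are not reported here; other genes named were chosen after their values were seen.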

Additional observations from a re-analysis of the deposited data

How the results depend on the processing

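The number of called genes, 2256, became 0 when low genes were kept (4255 by unadjusted p), 275 with 1 CPM asked of all libraries, 840 at equal depth and 1494 after subtracting the receptor background, and ranged from 0 to 3725 with 1 library left out. Members called higher, 8, became 0 with no filter (9 unadjusted), 0 with 1 CPM and 3 at equal depth, and ranged from 0 to 9. Members called lower, 2, became 0 with no filter (5 unadjusted), 3 with limma-voom, and 1 each with 1 CPM, at equal depth, with single-row genes and with a replicate block, and ranged from 0 to 2. The block called 1775 genes and 8 members higher. Deviations of same-numbered libraries had a correlation of -0.03 over 7836 genes. This gave no sign that the numbers pair the libraries but cannot settle it, as each group gives a single deviation per gene. Signs turned for Slc3a2 (0.15 with 1 CPM, 0.86 at equal depth, -2.14 to 0.66 with 1 library left out), Slc38a9 (0.19 with 1 CPM, -0.51 to 0.064), Slc6a9 (0.13 with 1 CPM, -0.52 to 0.21), Slc43a1 (-6.61 to 0.58) and Slc7a1 (-1.11 to 1.71). The cause was not tested. No sign turned under another scaling, DESeq2 or limma-voom. Depth limits the genes with few counts: 3 counts are 3.81 CPM in spermidine replicate 1.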

Other observations

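The control libraries differed from each other in some genes of the amino acid response list, and little in others. Trib3, a pseudokinase induced by ATF4, had 607 counts in control replicate 1 and 6058 in control replicate 2, a 9.97-fold difference in CPM. Chac1, which degrades glutathione, had 57 and 886 counts, Nupr1 had 35 and 614, Atf3 had 20 and 272, and Ddit4, an inhibitor of mTORC1, had 467 and 2875. Among tested genes that passed the filter through the controls, 5 of 16 of that list (31.2%) and 45 of all 5135 (0.876%) were more than 5-fold higher in control replicate 2. Slc1a4 was 2.02-fold higher there, the highest of 13 transporters compared, whose median was 0.863. The median was 1.54 over the 16 list genes and 0.977 over the 5135. Others of the same list differed little, with Atf4 at 1.04, Psat1 at 1.03, Psph at 1.05, Gars at 1.08 and Mthfd2 at 0.914, and Phgdh was at 0.777. These genes were picked after their values were seen, and no test was made.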
